A study of Mus musculus with 6 samples.

Results

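The 6 genes Stat2, Stat3, Stat4, Stat5a, Stat5b and Stat6 encode STAT proteins, signal transducers and activators of transcription. They were taken by gene symbol from a table of 22105 annotated genes of RAW264.7, a mouse macrophage cell line. The table held 3 libraries of cells kept for 24 h with nanoparticles named CM-PEG-PLGA@DOX/R848, dosed to match 2 µg/mL DOX, and 3 libraries of cells given phosphate buffered saline (PBS). DOX is doxorubicin, a DNA-damaging topoisomerase II poison, R848 is resiquimod, an agonist of endosomal Toll-like receptors, and PEG and PLGA are polymers. The labels do not spell out CM, and no library received a single component, so the parts of the particle cannot be told apart. All cells were of 1 line, and no label states that the replicates were separate cultures. Every p-value therefore takes its error from the spread among these libraries, which may be technical.

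STAT proteins wait in the cytoplasm until a cytokine receptor is engaged. Janus kinases (JAKs) bound to the receptor then phosphorylate them, the STATs pair through their SH2 domains, enter the nucleus and bind DNA. STAT2 joins IRF9 in ISGF3, the complex that carries the type I interferon signal, STAT3 serves the interleukin 6 and interleukin 10 receptors, STAT4 the interleukin 12 receptor, STAT5A and STAT5B the receptors with the common gamma or common beta chain, and STAT6 the interleukin 4 and interleukin 13 receptors. Phosphorylation, the step that turns a STAT on, is not measured by RNA sequencing.

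The promoters of the 3 genes whose level changed, and the only Stat4 window with a motif match, show which textbook STAT binding letters lie near each start. Each window runs from 250 bases before the transcription start to 50 after it, 5′ to 3′ on the strand of the gene (RefSeq, GRCm38.p6). They are Stat2 at chr10:128270248-128270547 (+), Stat3 at chr11:100939491-100939790 (-), Stat6 at chr10:127642736-127643035 (+) and the downstream start of Stat4 at chr1:52007990-52008289 (+). Capitals mark matches to the letters searched.
Stat2: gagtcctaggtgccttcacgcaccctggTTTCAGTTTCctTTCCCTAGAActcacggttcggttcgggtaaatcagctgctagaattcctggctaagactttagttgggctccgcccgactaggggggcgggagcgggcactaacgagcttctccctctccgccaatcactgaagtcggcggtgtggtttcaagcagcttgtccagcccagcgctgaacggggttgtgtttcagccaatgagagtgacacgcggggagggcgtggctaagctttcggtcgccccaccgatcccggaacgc
Stat3: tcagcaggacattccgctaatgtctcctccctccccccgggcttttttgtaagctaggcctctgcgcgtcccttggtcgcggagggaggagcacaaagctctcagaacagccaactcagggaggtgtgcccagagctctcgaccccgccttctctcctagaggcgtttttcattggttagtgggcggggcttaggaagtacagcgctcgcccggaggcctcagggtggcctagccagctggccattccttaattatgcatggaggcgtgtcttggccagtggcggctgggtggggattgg
Stat6: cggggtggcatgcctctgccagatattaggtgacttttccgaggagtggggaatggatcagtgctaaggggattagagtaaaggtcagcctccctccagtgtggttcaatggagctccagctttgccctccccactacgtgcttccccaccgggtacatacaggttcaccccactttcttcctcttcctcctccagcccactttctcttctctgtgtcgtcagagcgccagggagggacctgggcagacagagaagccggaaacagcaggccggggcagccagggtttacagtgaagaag
Stat4: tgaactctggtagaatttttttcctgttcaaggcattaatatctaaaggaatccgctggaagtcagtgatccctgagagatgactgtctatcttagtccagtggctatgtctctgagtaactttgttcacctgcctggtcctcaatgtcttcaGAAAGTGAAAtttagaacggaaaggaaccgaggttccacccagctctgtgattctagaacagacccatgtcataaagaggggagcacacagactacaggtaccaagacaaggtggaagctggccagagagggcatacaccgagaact

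The letters searched were GAAANNGAAA, the core of the interferon-stimulated response element (ISRE) that ISGF3 binds, TTCNNNGAA, the gamma-activated site (GAS) that most STAT dimers bind, and TTCNNNNGAA, the wider spacing that STAT6 prefers. The ISRE was sought on both strands, and the other motifs read the same on both. Stat2 held an ISRE match, TTTCAGTTTC, with its first base at position -222 relative to the start, and the wider motif, TTCCCTAGAA, at -210. These matches lay side by side without overlap. The downstream Stat4 window held GAAAGTGAAA at -97. No match lay in the windows of Stat3 or Stat6, nor in the upstream Stat4 window or the 4 windows of Stat5a and Stat5b. Of 32851 promoters of the same length, 3.44% held the ISRE letters, 8.30% the narrower GAS and 6.95% the wider one. A match is a description of the letters and not of binding.

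Against PBS, nanoparticle libraries held several times more Stat2 and Stat3 RNA and less Stat6 RNA, while Stat5a and Stat5b lay at overlapping levels in both groups and Stat4 stayed close to 0. Levels are given in FPKM, fragments scaled to transcript length and to the mapped total of the library, which allows genes of different length to be compared. Of the 6 genes, 5 reached a mean of 1 FPKM and were tested with limma on log2(FPKM + 1) together with all other such genes. Of the 5 tested, 2 rose and 1 fell at an adjusted p under 0.05, where 77.2% of all 10229 genes tested passed (42.7% higher and 34.5% lower). The share of STAT genes called is below that background, a difference that was not tested and rests on 5 genes. The size and direction of each gene's change therefore carry the description.

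**Figure D1:**
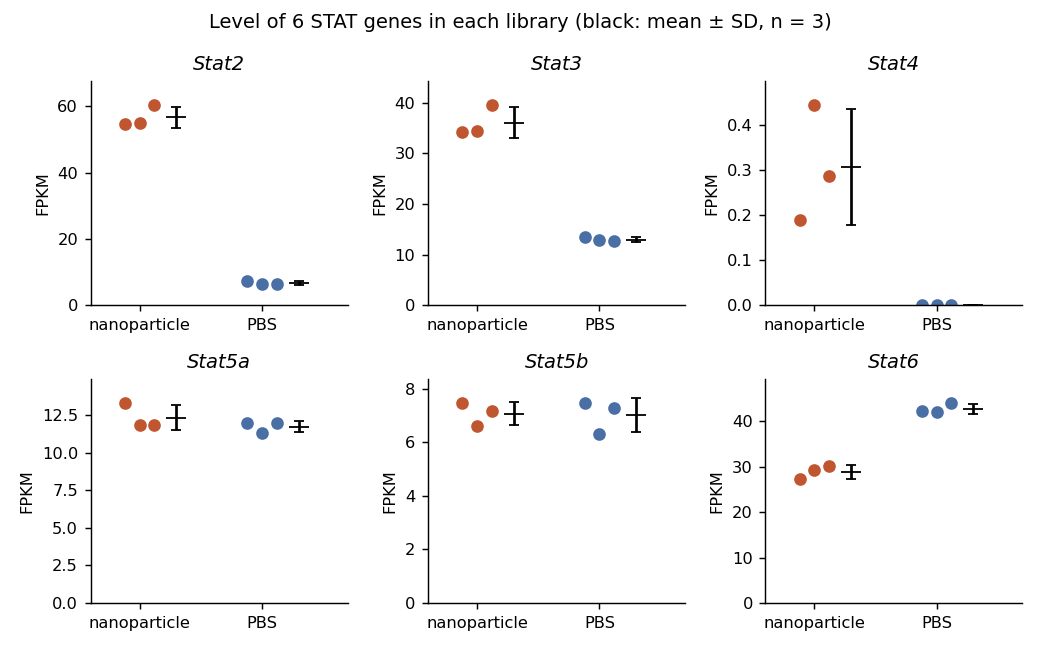
FPKM (vertical axes, each from 0) of the 6 STAT genes in the 3 nanoparticle and 3 PBS libraries (1 point per library), with the mean and SD in black. The groups are apart for Stat2, Stat3, Stat4 and Stat6 and overlap for Stat5a and Stat5b.

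Stat2 (ENSMUSG00000040033, chromosome 10, 128270559 to 128292849, GRCm38, plus strand) encodes the STAT devoted to interferon signalling. Its level was 54.7, 55.0 and 60.3 FPKM in nanoparticle libraries, against 7.38, 6.43 and 6.48 FPKM in PBS libraries. Every nanoparticle library was above every PBS library, a separation in either direction that 78.8% of tested genes had, and the groups were far apart compared with the spread within them. The means were 56.7 ± 3.17 FPKM in nanoparticle and 6.76 ± 0.536 FPKM in PBS libraries (SD, n = 3 each), a ratio of 8.38. The log2 fold change was 2.89 ± 0.07 (SE, limma adjusted p = 6.7e-10), on log2 values with 1 FPKM added, so changes of low genes come out too small. It exceeded that of 98.9% of genes tested. By its mean level Stat2 stood above 84.6% of tested genes in nanoparticle libraries and above 30.7% in PBS libraries.

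Stat3 (ENSMUSG00000004040, chromosome 11, 100885098 to 100939540, minus strand) encodes the factor that answers interleukin 6 and interleukin 10 in macrophages. It was at 34.2, 34.4 and 39.5 FPKM in nanoparticle libraries, against 13.4, 12.9 and 12.6 FPKM in PBS libraries. The groups did not overlap, and nanoparticle replicate 3 was the highest library, as it was for Stat2. The means were 36.1 ± 3.01 FPKM in nanoparticle and 13.0 ± 0.412 FPKM in PBS libraries (SD, n = 3 each), a ratio of 2.78. On the log2 scale that was 1.40 ± 0.07 higher (SE, limma adjusted p = 6.5e-08). This change exceeded that of 93.9% of tested genes.

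Stat6 (ENSMUSG00000002147, chromosome 10, 127642986 to 127660957, plus strand), which encodes the mediator of alternative macrophage activation by interleukin 4, was the 1 member that fell. It was at 27.3, 29.3 and 30.1 FPKM in nanoparticle libraries, against 42.3, 42.1 and 44.1 FPKM in PBS libraries. All nanoparticle libraries lay below all PBS libraries. The means were 28.9 ± 1.45 FPKM in nanoparticle and 42.9 ± 1.11 FPKM in PBS libraries (SD, n = 3 each), and the log2 fold change was -0.56 ± 0.06 (SE, limma adjusted p = 1.2e-05). In bulk libraries less of an RNA in each cell and fewer cells that hold it cannot be told apart. Of the tested genes, 17.4% had a lower log2 fold change. Its level remained above that of 69.5% of tested genes in nanoparticle libraries, against 80.6% in PBS libraries.

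Stat5a (ENSMUSG00000004043, chromosome 11, 100859351 to 100885169, plus strand) and Stat5b (ENSMUSG00000020919, chromosome 11, 100780731 to 100850724, minus strand) encode the close paralogs that carry signals of GM-CSF and of interleukins with the common gamma chain. Stat5a was at 13.3, 11.9 and 11.9 FPKM in nanoparticle libraries, against 12.0, 11.3 and 12.0 FPKM in PBS libraries. Stat5b was at 7.46, 6.60 and 7.16 FPKM in nanoparticle libraries, against 7.48, 6.30 and 7.29 FPKM in PBS libraries. For each gene the groups overlapped and no change was called. The log2 fold change of Stat5a was 0.06 with a 95% interval of -0.09 to 0.22 (limma adjusted p = 0.42), and that of Stat5b was 0.01 with an interval of -0.18 to 0.20 (limma adjusted p = 0.91). The sign of either change turned negative when libraries were scaled by median ratio or upper quartile. A change as large as that of Stat3 or Stat6 lay outside both intervals.

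Stat4 (ENSMUSG00000062939, chromosome 1, 51987148 to 52107189, plus strand) encodes the interleukin 12 factor of T and natural killer (NK) cells. It was at 0.189, 0.445 and 0.286 FPKM in nanoparticle libraries and was listed at 0 in all 3 PBS libraries. It fell under the filter of 1 FPKM, so it was left out of the limma test. The groups did not overlap, as for 78.8% of tested genes, a set that leaves Stat4 out. An exact two-sided permutation test gave p = 0.1, the smallest that 3 libraries against 3 allow. Without the filter, limma called it higher (adjusted p = 0.0028), as it did 6244 of 18008 genes. With 0 in every PBS library, that call rests on the low nanoparticle values alone. Of 8358 genes listed at 0 in every PBS library, 1121 (13.4%) were above 0 in every nanoparticle library, and Stat4 was above 93.9% of these by its mean. Nanoparticle libraries listed 15723 to 15989 genes above 0 and PBS libraries 12678 to 12872, and the part of that difference in the Stat4 values was not tested. Of 12 T cell and NK cell markers, 8 stayed under 0.1 FPKM in every library, and Cd3g, Cd8a and Ncr1 were listed at 0 in all 6. The summed level of these markers was 9.67 to 12.4 FPKM in nanoparticle libraries and 5.13 to 5.45 FPKM in PBS libraries, carried mostly by Lck (9.53 ± 1.35 FPKM in nanoparticle and 2.55 ± 0.321 FPKM in PBS libraries) and Cd5 (0.765 ± 0.0990 FPKM in nanoparticle and 2.58 ± 0.363 FPKM in PBS libraries).

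**Figure D2:**
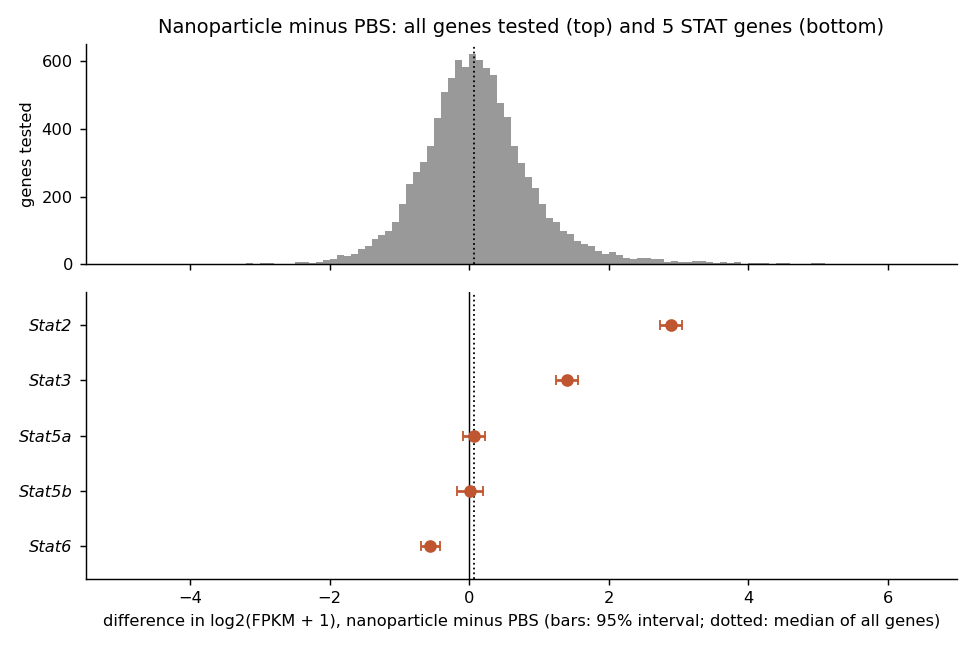
Difference in log2(FPKM + 1), nanoparticle minus PBS, for all 10229 genes tested (top, number of genes per bin of the axis) and for 5 STAT genes with 95% intervals (bottom). Stat2 and Stat3 lie in the upper tail, Stat6 lies below 0, and the intervals of Stat5a and Stat5b span 0 and the dotted median of all genes.

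The order of the STAT genes by level was not the same in the 2 groups. In nanoparticle libraries Stat2 came first at 54.7 to 60.3 FPKM, followed by Stat3 at 34.2 to 39.5, Stat6 at 27.3 to 30.1, Stat5a at 11.9 to 13.3, Stat5b at 6.60 to 7.46 and Stat4 at 0.189 to 0.445. None of these ranges overlapped. In PBS libraries Stat6 came first at 42.1 to 44.1 FPKM, followed by Stat3 at 12.6 to 13.4 and Stat5a at 11.3 to 12.0. Stat5b, at 6.30 to 7.48, and Stat2, at 6.43 to 7.38, could not be ordered there, and Stat4 was listed at 0.

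The summed level of the 6 genes was 137, 138 and 149 FPKM in nanoparticle libraries, against 82.6, 79.0 and 82.5 FPKM in PBS libraries. Stat6 made up 20.4 ± 0.735% of that sum in nanoparticle libraries and 52.7 ± 1.23% in PBS libraries (SD, n = 3 each). Stat2 made up 40.1 ± 0.289% in nanoparticle libraries and 8.31 ± 0.563% in PBS libraries. The share of Stat3 was 25.5 ± 0.867% in nanoparticle libraries and 15.9 ± 0.572% in PBS libraries. The ratio of Stat5a to Stat5b was 1.79, 1.80 and 1.66 in nanoparticle libraries, against 1.60, 1.80 and 1.64 in PBS libraries. Shares of a sum are tied to each other, so the lower share of the STAT5 genes (8.77% and 5.01% in nanoparticle libraries, 14.5% and 8.62% in PBS libraries, Stat5a before Stat5b) came with FPKM that did not differ detectably. These shares and ratios are descriptions without a test.

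**Figure D3:**
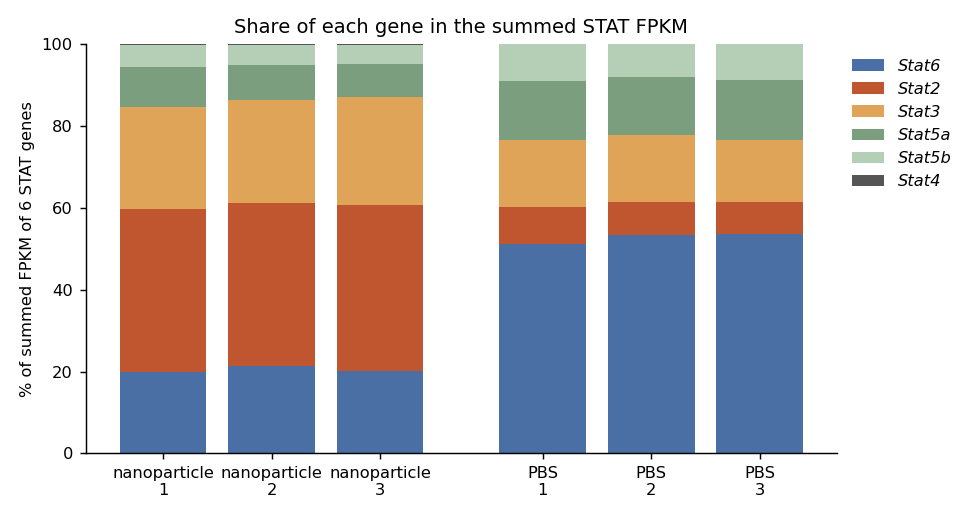
Share (%) of each STAT gene in the summed FPKM of the 6 genes, 1 bar per library, nanoparticle at the left and PBS at the right. Stat6 takes the largest share in each PBS library and Stat2 the largest in each nanoparticle library, while Stat4 is barely visible.

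Stat5b, Stat5a and Stat3 form a cluster on chromosome 11, and Stat6 and Stat2 lie 610 kb apart on chromosome 10. Stat5a and Stat5b are 8.63 kb apart on opposite strands. Stat5a ends within Stat3, with 72 bp of overlap on opposite strands. Stat3 rose while Stat5a was not called. The sources used here do not state whether strand was used in counting, and fragments from that shared end could fall to either gene. Stat6 overlaps Nab2 by 40 bp on the opposite strand. Nab2, a corepressor of EGR factors, was higher (25.0 FPKM in nanoparticle and 18.6 FPKM in PBS libraries), opposite to Stat6. The span of Stat4 also takes in Gm28177 and Gm3940, which were not analysed here.

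Flanking genes did not share 1 direction with the STAT genes. Il23a, the p19 subunit of interleukin 23, lies 3290 bp beyond Stat2 and was higher too (5.83 ± 0.685 FPKM in nanoparticle and 0.336 ± 0.0726 FPKM in PBS libraries). Il23a reached the filter of 1 FPKM only through nanoparticle libraries, so its direction was largely set by the filter. Timeless, on the other side of Stat2, fell (log2 fold change -0.42). Atp6v0a1, a proton pump subunit gene next to Stat3, rose (log2 fold change 1.96). Ghdc, next to Stat5b, rose by 0.35 (adjusted p = 0.055 under median-ratio scaling). Lrp1, a lipoprotein receptor gene before Stat6, fell (log2 fold change -1.53) and Nemp1 after it rose (0.57). Nabp1, before Stat4, rose (3.36) at a distance of 508723 bp.

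The coding regions of Stat5a and Stat5b were 90.8% identical at aligned bases, while every other pair of the 6 genes stood between 61.9% and 67.8%. Of all stretches of 100 bases in their longest coding transcripts (GENCODE M21), 7.56% of those of Stat5a occurred unchanged in Stat5b and 5.18% of those of Stat5b in Stat5a, and no other pair shared any. A fragment that lies wholly within such a stretch cannot be assigned to 1 gene of the pair by its sequence. The paralogs also share a stretch of 65 bases at their downstream annotated starts, identical at 58 of them, at chr11:100860418-100860482 (+) for Stat5a and chr11:100822563-100822627 (-) for Stat5b (RefSeq, GRCm38.p6). It is shown because it lets the likeness of the paralogs be read directly, and capitals mark the bases that differ.
Stat5a: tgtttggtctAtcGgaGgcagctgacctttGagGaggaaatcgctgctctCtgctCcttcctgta
Stat5b: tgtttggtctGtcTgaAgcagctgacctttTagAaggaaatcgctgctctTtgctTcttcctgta

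The genes most like each STAT gene were sought among tested genes averaging 10 FPKM or more, by the Euclidean distance over the 6 libraries between values of log2(FPKM + 1) centred on each gene's mean. This distance takes in both the difference between the groups and the spread within them. The genes named here were picked by it, so the likeness of their changes and calls to those of the STAT gene follows from the choice. Stk40 (distance 0.155) and Rab15 (0.168) were closest to Stat2, with 42.6 and 23.4 FPKM in nanoparticle libraries against 4.66 and 2.46 FPKM in PBS libraries. Paf1 (0.0745) and Rhoq (0.0978) were closest to Stat3, with log2 fold changes of 1.41 and 1.37. Orc5 (0.050) and Kpnb1 (0.0531) were closest to Stat6, with log2 fold changes of -0.58 and -0.56. Bag6 (0.0480) and Abhd11 (0.0681) were closest to Stat5a, and Coro7 (0.0698) and Setd1a (0.0701) to Stat5b, and none of these 4 genes was called.

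Around the STAT genes, 164 pathway genes were listed by role, of which 111 were tested. Of these 75 (67.6%) rose and 19 (17.1%) fell, so that 84.7% were called, where 77.2% of all genes tested were called, 42.7% higher and 34.5% lower. The filter took the mean over both groups, and 14 of the 111 reached it only through the nanoparticle libraries and 1 only through the PBS libraries, so the direction of these was largely set by the filter. Of the 96 genes with a mean of 1 FPKM or more in each group, 61 rose and 18 fell. The share of all genes under that stricter filter was not computed, so these counts have no matching background. The lists were also chosen with earlier results of these data known. Some genes belong to several lists.

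**Figure D4:**
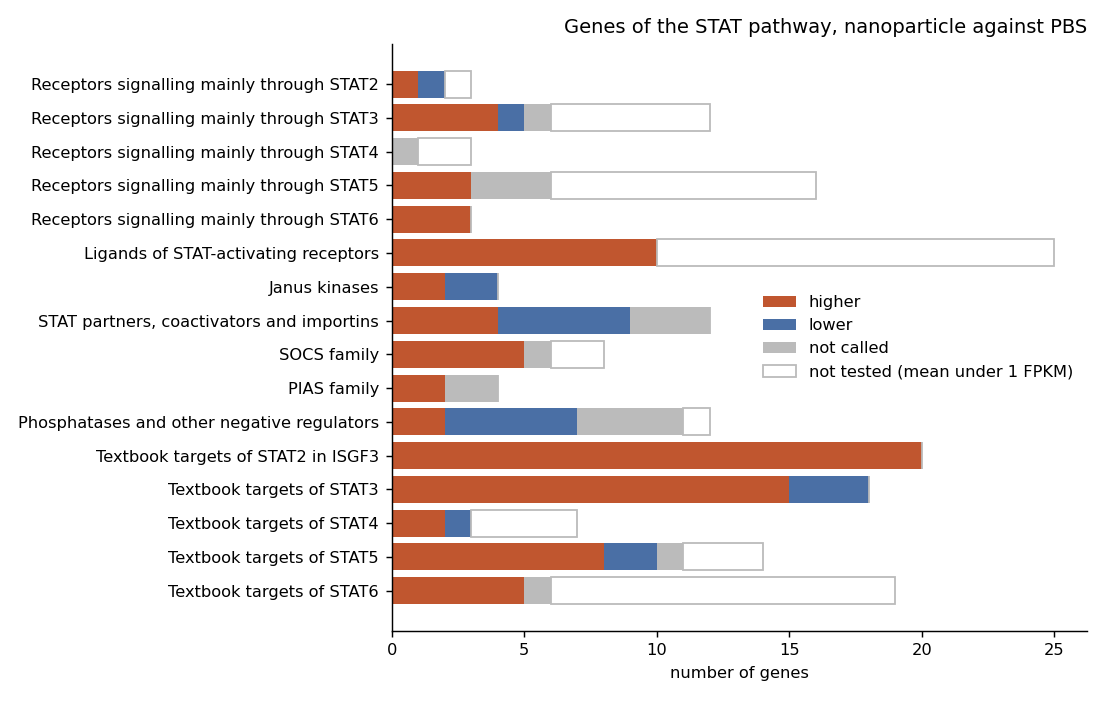
Number of genes in each list of the STAT pathway that were higher, lower or not called in nanoparticle against PBS libraries (limma adjusted p under 0.05) or were not tested. The 20 STAT2 targets are higher, 7 of the 10 tested ligands passed the filter only through nanoparticle libraries, and most STAT6 targets are under it.

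Of 25 ligands of STAT-activating receptors, 10 were tested and called higher, but 7 of these averaged under 1 FPKM in PBS libraries and entered the test only through their nanoparticle values, so their count says little. The 3 ligands with a mean of 1 FPKM or more in each group were Csf3, Osm and Ebi3, and these rose. Csf3, which encodes G-CSF and signals through STAT3, was at 220 ± 15.3 FPKM in nanoparticle and 6.24 ± 0.687 FPKM in PBS libraries. Il6, the classical STAT3 ligand, was at 30.8, 37.2 and 33.9 FPKM in nanoparticle libraries, against 0.205, 0.0584 and 0.258 FPKM in PBS libraries. Il27, whose product acts with that of Ebi3, was at 14.0 ± 1.11 FPKM in nanoparticle and 0.970 ± 0.0627 FPKM in PBS libraries. Il6 and Il27 were among the 7 with a low PBS level. Osm, whose product oncostatin M signals through gp130, was at 10.95 ± 0.450 FPKM in nanoparticle and 2.13 ± 0.0961 FPKM in PBS libraries, and Ebi3 was at 27.0 ± 2.19 FPKM in nanoparticle and 15.3 ± 1.36 FPKM in PBS libraries. Osm, Ebi3 and the next 3 genes were named after their values were seen. Ifnb1, the interferon that engages STAT2, was at 3.62, 4.45 and 3.74 FPKM in nanoparticle libraries and listed at 0 in PBS libraries. Il4 was listed at 0 in all 6 libraries, and Il13 reached at most 0.0539 FPKM, so RNA for the 2 STAT6 ligands was near or at 0.

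Receptor genes were mixed in direction. Of the interferon receptor chains used by STAT2, Ifnar1 rose to 15.2 ± 1.25 FPKM in nanoparticle libraries, against 12.4 ± 0.103 FPKM in PBS libraries, a call lost with median-ratio scaling (limma adjusted p = 0.065). Ifnar2 fell (25.6 ± 0.835 FPKM in nanoparticle and 32.1 ± 0.974 FPKM in PBS libraries), and Ifnlr1 reached at most 0.0823 FPKM. Of 12 receptor genes used by STAT3, 6 were tested, 4 rose and 1 fell, with a median of 0.23. The 83.3% called is near the 77.2% of all genes tested. Il10ra, the signalling chain of the interleukin 10 receptor, rose (5.84 ± 0.548 FPKM in nanoparticle and 3.94 ± 0.400 FPKM in PBS libraries) and Il6ra fell (7.85 ± 0.648 FPKM in nanoparticle and 10.5 ± 0.920 FPKM in PBS libraries). Il11ra1 rose (log2 fold change 0.61), though near-identical copies of that gene make its level uncertain. With median-ratio scaling 2 of the STAT3 receptor genes rose and 2 fell.

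Among the 3 receptor genes used by STAT4, Il12rb1 was at 1.38 ± 0.161 FPKM in nanoparticle and 1.64 ± 0.171 FPKM in PBS libraries and was not called (limma adjusted p = 0.16, and 0.043 with median-ratio scaling). Il12rb2 reached at most 0.0949 FPKM and Il23r was listed at 0 in all 6 libraries. Of 16 receptor genes used by STAT5, 6 were tested, of which 3 rose and the others were not called, and the median was 0.48. The 50% called is below the 77.2% of all genes tested, a difference that was not tested. Il2rg, the common gamma chain, was at 120, 127 and 125 FPKM in nanoparticle libraries, against 60.9, 62.6 and 58.7 FPKM in PBS libraries (limma adjusted p = 8.2e-08). Crlf2, of the TSLP receptor, rose (11.6 ± 1.48 FPKM in nanoparticle and 6.79 ± 0.342 FPKM in PBS libraries), as did Csf2rb2 (5.31 ± 0.126 FPKM in nanoparticle and 2.64 ± 0.190 FPKM in PBS libraries), a close copy of Csf2rb from which its fragments may not be fully separated.

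All 3 receptor genes used by STAT6 were called higher, though Il4ra reached the filter only through nanoparticle libraries. Of all genes tested 42.7% were called higher. Il4ra, the chain that binds interleukin 4, was at 3.92, 3.25 and 3.24 FPKM in nanoparticle libraries, against 0.843, 0.911 and 0.722 FPKM in PBS libraries. Il13ra1 was at 17.2 ± 1.75 FPKM in nanoparticle and 10.4 ± 0.165 FPKM in PBS libraries, and Il2rg completes the list.

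The 4 Janus kinases divided, 2 higher and 2 lower. All 4 were called, where 77.2% of all genes tested were. Jak2, which serves the receptors of STAT5 and STAT3, was at 12.2, 14.0 and 15.7 FPKM in nanoparticle libraries, against 5.93, 5.81 and 7.22 FPKM in PBS libraries (log2 fold change 1.03, limma adjusted p = 1.0e-05). Jak1 rose (31.3 ± 3.63 FPKM in nanoparticle and 24.9 ± 0.907 FPKM in PBS libraries). Tyk2, which serves the interferon and interleukin 12 receptors, fell (12.7 ± 0.372 FPKM in nanoparticle and 17.7 ± 0.622 FPKM in PBS libraries), and Jak3, the partner of the common gamma chain, fell (3.32 ± 0.645 FPKM in nanoparticle and 4.62 ± 0.286 FPKM in PBS libraries).

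Of 12 partners, coactivators and importins, all tested, 4 rose and 5 fell, with a median of -0.04. The 75.0% called is near the 77.2% of all genes tested. Without PBS replicate 3 the number that fell was 3. Nmi, a protein that binds STATs and is itself interferon inducible, rose (61.3 ± 2.98 FPKM in nanoparticle and 17.3 ± 1.41 FPKM in PBS libraries). Cited2, which competes for the coactivators p300 and CBP, fell (136 ± 3.57 FPKM in nanoparticle and 274 ± 5.55 FPKM in PBS libraries). Kpnb1, the importin beta that carries cargo into the nucleus, fell (79.7 ± 4.16 FPKM in nanoparticle and 118 ± 4.26 FPKM in PBS libraries). Irf9, the DNA-binding partner of STAT2, rose to 33.8, 34.1 and 32.2 FPKM in nanoparticle libraries, against 22.3, 23.2 and 23.1 FPKM in PBS libraries, and was named after its values were seen. Its log2 fold change of 0.53 was smaller than the 2.89 of Stat2.

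**Figure D5:**
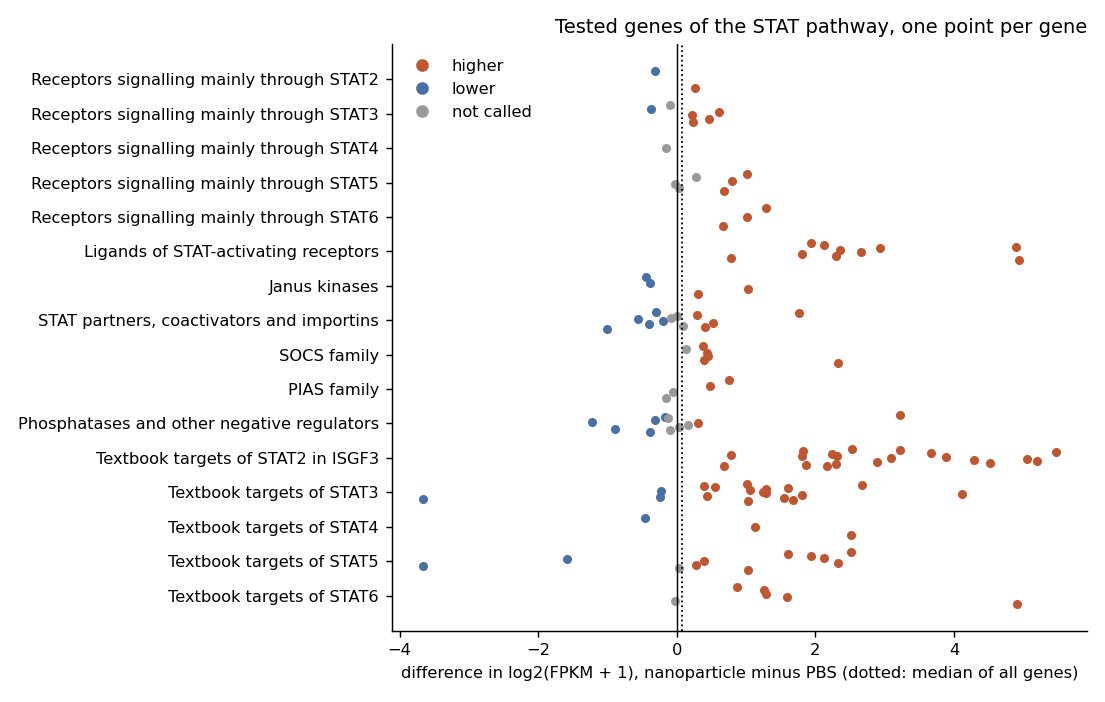
Difference in log2(FPKM + 1), nanoparticle minus PBS, of each tested gene in the lists of the STAT pathway (1 point per gene, coloured by its call). The STAT2 targets lie to the right of 0, as do the ligands, most of which were tested only because of their nanoparticle values, while receptors, kinases, partners and inhibitors lie on both sides of it.

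Inhibitors of STAT signalling did not move together. Of 8 SOCS genes, some of which are induced by STATs and block their receptors, 6 were tested and 5 rose. Of these 5, Cish averaged under 1 FPKM in PBS libraries and passed the filter only through nanoparticle libraries. The 83.3% of tested SOCS genes called is near the 77.2% of all genes tested. Cish, the classical STAT5 feedback gene, was at 4.77, 4.77 and 4.18 FPKM in nanoparticle libraries, against 0.0822, 0.148 and 0.0972 FPKM in PBS libraries. Socs3, the feedback inhibitor of gp130 receptors, rose less (14.3 ± 0.786 FPKM in nanoparticle and 10.7 ± 0.346 FPKM in PBS libraries), as did Socs5 (6.72 ± 0.279 FPKM in nanoparticle and 4.73 ± 0.189 FPKM in PBS libraries). Of the 4 PIAS genes, which encode SUMO ligases named for inhibiting activated STATs, Pias4 (19.0 ± 1.47 FPKM in nanoparticle and 10.9 ± 1.00 FPKM in PBS libraries) and Pias3 (9.03 ± 0.345 FPKM in nanoparticle and 6.21 ± 0.542 FPKM in PBS libraries) rose. Pias1 (9.93 ± 0.821 FPKM in nanoparticle and 11.2 ± 0.608 FPKM in PBS libraries) and Pias2 (15.1 ± 1.36 FPKM in nanoparticle and 15.7 ± 1.35 FPKM in PBS libraries) were not called. The 50% of PIAS genes called is below the 77.2% of all genes tested, a difference that was not tested. Pias1 was called lower with the replicate number as a block (limma adjusted p = 0.040), with median-ratio scaling (0.0057), with upper quartile scaling (0.0098) and without nanoparticle replicate 3 (0.023).

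Of 12 phosphatases and other negative regulators, 11 were tested, 2 rose and 5 fell, with a median of -0.12. The 63.6% called is below the 77.2% of all genes tested, a difference that was not tested. Usp18, which blocks the interferon receptor and is itself interferon inducible, was at 302, 304 and 281 FPKM in nanoparticle libraries, against 29.9, 32.3 and 29.9 FPKM in PBS libraries. Ptpn6, the phosphatase SHP-1, was at 76.8, 76.3 and 73.8 FPKM in nanoparticle libraries, against 179, 180 and 174 FPKM in PBS libraries (log2 fold change -1.22, limma adjusted p = 1.5e-08). Pdlim2, a nuclear ubiquitin ligase that targets STAT4, fell (14.9 ± 0.918 FPKM in nanoparticle and 28.6 ± 0.345 FPKM in PBS libraries). The number that fell was 4 without nanoparticle replicate 2 and 7 with median-ratio scaling. With the replicate block, Ptpn11, the phosphatase SHP-2, was called higher (log2 fold change 0.17, limma adjusted p = 0.041). Sh2b3, an adaptor, was called lower with that block (-0.12, limma adjusted p = 0.030). Ptpn11 was also called higher without nanoparticle replicate 1 (limma adjusted p = 0.015). Sh2b3 was also called lower with median-ratio scaling (limma adjusted p = 0.0068) and upper quartile scaling (0.011). Both were named after their values were seen.

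Textbook targets were read for each STAT, and many of them also answer to other factors. Of all genes tested 77.2% were called, 42.7% higher and 34.5% lower, and the counts below stand beside that share. All 20 listed targets of STAT2 in ISGF3 were tested and rose, including 19 with a mean of 1 FPKM or more in each group, and the median of their log2 changes was 2.70. Irf7, the interferon regulatory factor that amplifies the response, was at 1047 ± 63.4 FPKM in nanoparticle and 52.5 ± 2.20 FPKM in PBS libraries, and Ifit3 and Rsad2 had log2 fold changes of 5.20 and 5.47. Of 18 STAT3 targets, all tested, 15 rose and 3 fell, and of the 16 with a mean of 1 FPKM or more in each group 13 rose and 3 fell. Il1rn, the interleukin 1 receptor antagonist, and Tnfrsf1b, a tumour necrosis factor receptor, rose (log2 fold changes of 4.12 and 2.68). The 3 that fell were Ccnd1, cyclin D1 (-3.66), and, named after their values were seen, Fos (-0.24) and Mcl1 (-0.22).

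Of 7 STAT4 targets, 3 were tested, Hlx only through its nanoparticle level. Furin, a proprotein convertase, was at 76.8 ± 2.98 FPKM in nanoparticle and 12.6 ± 1.05 FPKM in PBS libraries and Hlx at 2.53 ± 0.165 FPKM in nanoparticle and 0.633 ± 0.279 FPKM in PBS libraries, and these rose, while Il18rap fell (8.21 ± 0.879 FPKM in nanoparticle and 11.6 ± 0.515 FPKM in PBS libraries). Of 14 STAT5 targets, 11 were tested, 8 rose and 2 fell, and of the 8 with a mean of 1 FPKM or more in each group 6 rose and 1 fell. The 90.9% of tested STAT5 targets called stands beside 77.2% of all genes tested, a difference that was not tested. Pim2, a survival kinase, rose (39.5 ± 4.63 FPKM in nanoparticle and 6.06 ± 0.279 FPKM in PBS libraries), and Ccnd1 fell. Igf1, named after its values were seen, also fell (log2 fold change -1.58) and passed the filter only through PBS libraries.

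Of 19 STAT6 targets, 6 were tested and 5 were called higher, but 4 of these reached the filter only through nanoparticle libraries, so the count says nothing of the list's direction. Of the 2 with a mean of 1 FPKM or more in each group, Ccl22 rose and Clec10a was not called. Ccl22, a chemokine, was at 93.5 ± 5.29 FPKM in nanoparticle and 2.14 ± 0.199 FPKM in PBS libraries. Egr2 (4.63 ± 0.375 FPKM in nanoparticle and 0.879 ± 0.225 FPKM in PBS libraries) and Klf4 (3.04 ± 0.254 FPKM in nanoparticle and 0.678 ± 0.0586 FPKM in PBS libraries), transcription factors, were among the 4. The other 13 targets were under the filter. Retnla, a marker of interleukin 4 stimulation in mouse macrophages, was listed at 0 in all 6 libraries, and Chil3 averaged 0.0197 ± 0.0341 FPKM in nanoparticle libraries and was listed at 0 in PBS libraries. Clec10a, Retnla and Chil3 were named after their values were seen. Without the filter 13 of the 19 were called higher, where 6244 of 18008 genes were, and with a filter of 5 FPKM 1 was. The genes added without the filter averaged under 1 FPKM over the 6 libraries, so that count says little of the list's direction.

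Macrophage markers were present in both groups, at lower sums in nanoparticle libraries. Of 12 macrophage markers 11 were tested, 4 rose and 6 fell, with sums of 1750 to 1869 FPKM in nanoparticle and 3598 to 3765 FPKM in PBS libraries. The 90.9% called stands beside 77.2% of all genes tested, a difference that was not tested. Csf1r, which encodes the M-CSF receptor, fell (49.1 ± 1.61 FPKM in nanoparticle and 296 ± 7.93 FPKM in PBS libraries), Lyz2 fell (395 ± 8.95 FPKM in nanoparticle and 1503 ± 32.2 FPKM in PBS libraries) and Adgre1 rose (12.4 ± 1.16 FPKM in nanoparticle and 1.77 ± 0.177 FPKM in PBS libraries). Mertk averaged 0.0856 FPKM in nanoparticle libraries and was listed at 0 in PBS libraries. Summed levels in nanoparticle libraries were at most 0.803 FPKM for 7 B cell markers, 1.28 FPKM for 6 dendritic cell markers and 0.885 FPKM for 9 epithelial and fibroblast markers, and in PBS libraries at most 0.133, 0.50 and 0.330 FPKM in the same order.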

How the data were processed

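RNA sequencing of 6 RAW264.7 libraries was analysed, 3 per group. Per the labels' protocols, TRIzol was used for the RNA and a BGI mRNA kit protocol for the libraries. The authors deposited 1 column of FPKM per library. The header names no unit, so FPKM was inferred from the values, which were not whole and whose sums (451056 to 469220) differed between libraries. TPM from which rows were removed could look the same, so the unit is not settled. The submitters' processing notes name STAR and featureCounts, without versions, and the builds GRCm38 and mm10. One column, taken as PBS replicate 1, carries an unexplained suffix after the library name.

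Of 22614 rows, 509 without an Ensembl gene identifier (0.427% to 0.497% of the FPKM) were left out, and GENCODE M21 (GRCm38) gave coordinates for 21995 of the other 22105. Symbols are those of the table. Library depths are not stated in the sources used here. From the step between low values, 17100000 to 22000000 fragments per library were inferred. Low values came out whole within 0.05 in only 21.1% to 29.7% of cases, so fragments were not recovered and no count test was run.

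Genes averaging 1 FPKM or more over the 6 libraries were tested as log2(FPKM + 1) with limma 3.58.1 (R 4.3.3). The fit had an intensity trend and a treatment term alone. P-values were two-sided and adjusted by Benjamini-Hochberg over all 10229 genes, with a threshold of 0.05. The fit was run on simulated data in which few genes changed, unlike these data, so that run does not give the error rate here. Means are given with the SD over 3 libraries. Python 3.11.15 with pandas 2.3.3 handled tables and promoters. Promoter sequences are from RefSeq (GRCm38.p6), where 6 of 6 genes matched with 9 windows. Median-ratio scaling moved the median log2 fold change of all genes by -0.11.

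Replicates carry the numbers 1 to 3 in each group's labels. Deviations from the group means correlated across genes by 0.130, 0.115 and 0.354 between libraries of the same number, all over 0.1. Nanoparticle replicate 1 correlated as much with PBS replicate 2 (0.134), so the pairing is a hint from the data only. A fit with the replicate number as a block was run as an alternative.

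The members, the 16 pathway lists and 5 marker lists were chosen with earlier results of these data known. Named genes are all members, the 3 tested genes with the smallest p in each list, the most significant called gene against the majority of its list, every gene of lists of 4 or fewer, the 2 nearest patterns to each tested member, and overlapping or flanking genes. Some genes that this rule names are left out. Near-identical genes and opposite-strand overlaps are uncertain, as said beside them.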

Additional observations from a re-analysis of the deposited data

How the results depend on the processing

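The calls and directions of Stat2, Stat3 and Stat6 held under all 15 alternatives, which changed the pseudocount (0.1 or 10), the filter (none or 5 FPKM), the scaling, the intensity trend or the replicate block, or left out 1 library. Their log2 fold changes ranged from 1.99 to 3.05, from 1.00 to 1.47 and from -0.68 to -0.44, with limma adjusted p of at most 6.8e-07, 7.7e-06 and 0.00012. Stat5a and Stat5b were called under none of them, but their sign was not fixed. The log2 fold change of Stat5a was -0.054 with median-ratio and -0.033 with upper quartile scaling, and that of Stat5b was -0.101 and -0.082. Leave-one-out values of Stat5b ranged from -0.056 to 0.054. Stat4, with a difference of 0.38 on the log2(FPKM + 1) scale, was called only without the filter (limma adjusted p = 0.0028), where 6244 genes rose and 3560 fell.

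The samples were paired by replicate number as an alternative. With that replicate block 4609 of all genes tested rose and 3742 fell, and of the pathway genes 76 rose and 21 fell. It changed the calls of Pias1, Ptpn11 and Sh2b3 and no other call of a STAT or listed pathway gene. Counts of single lists moved by over 1.5 times under 1 alternative in 23 cases and stayed within that in the other 457. The unknown depth limits what can be said of Stat4 and of other genes under the filter.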
